A study of Homo sapiens with 12 samples.

Results

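The genes described here are 34 targets of NRF2 (gene NFE2L2) that handle oxidants, electrophiles and reactive carbonyls, taken from a list of names grouped by role: glutathione, thioredoxin, NADPH supply, carbonyl and quinone reduction, and other targets. Of these, 33 were read by at least 1 Affymetrix probe set that names the gene alone, out of 19775 genes measured in this way, and 62 probe sets read them, while AKR1A1 was not analysed here. They were followed in 4 groups of 3 arrays each, 12 arrays in all. The resistant groups, KMS-11/Cfz and KMS-34/Cfz, derive from human multiple myeloma cell lines, grow in 12 nM carfilzomib, an irreversible inhibitor of the proteasome, and had been kept without the drug for 1 week when RNA was taken. Their references are the parental lines KMS-11 and KMS-34, never selected in the drug. All 4 groups grew, by the sample labels, in medium with 4% fetal bovine serum (the methods of the study give another serum content). The methods describe stepwise selection and give 1 resistant culture for each line, so a change in a line is a change in that culture. No label says that the arrays of a group came from separate cultures, so p-values measure the spread between these samples, which may be technical.

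NRF2 is a transcription factor that the adaptor KEAP1 normally delivers to ubiquitination and destruction by the proteasome. When electrophiles or oxidants modify KEAP1, or when the protein SQSTM1/p62 occupies it, NRF2 escapes, pairs with a small MAF protein and binds antioxidant response elements near its targets. These targets make and use glutathione, regenerate thioredoxin, supply the NADPH that both systems consume, and reduce quinones and carbonyls before they react with protein.

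The deposited values are log2 signals centred for each probe set on 1 value common to all arrays, so they carry differences between arrays but no level. Each array value below is therefore a log2 difference from the average of that line's parental arrays, and no gene's level is set against another's. A gene is the mean of its probe sets. Rises and falls are named only where limma gave an adjusted p under 0.05 over all 19775 genes (Benjamini-Hochberg, two-sided), and errors are standard errors unless stated.

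Antioxidant response elements share the core TGACNNNGC, and the core stood within the 300 bases around the annotated start (250 before, 50 after) of several members, on one strand or the other. Of 26 members with such a RefSeq window (GRCh38.p14), 11 (42.3%) held the core, while 16.1% of the 27305 genes with a window did. The core can hold within it the AP-1 motif TGANTCA. Windows of 4 members that hold the core are shown. GCLM and PIR rose in KMS-11/Cfz and not in KMS-34/Cfz, and GSTP1 and ME1 were far lower in KMS-34 than in KMS-11. NXN, TALDO1, SRXN1 and NQO1 also rose in KMS-11/Cfz and not in KMS-34/Cfz, but their windows held no core. Capitals mark the core.
GCLM: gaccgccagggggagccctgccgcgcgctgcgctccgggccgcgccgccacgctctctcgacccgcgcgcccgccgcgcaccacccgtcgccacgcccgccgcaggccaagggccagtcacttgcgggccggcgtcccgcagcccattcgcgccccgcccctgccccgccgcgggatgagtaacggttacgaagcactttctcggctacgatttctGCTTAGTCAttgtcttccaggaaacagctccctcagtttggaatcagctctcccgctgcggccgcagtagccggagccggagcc
PIR: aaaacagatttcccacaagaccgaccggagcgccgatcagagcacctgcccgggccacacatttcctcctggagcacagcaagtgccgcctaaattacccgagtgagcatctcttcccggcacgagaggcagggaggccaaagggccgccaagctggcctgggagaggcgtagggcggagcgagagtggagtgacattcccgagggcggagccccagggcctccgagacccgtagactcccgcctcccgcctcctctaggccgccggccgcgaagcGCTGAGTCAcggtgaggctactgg
GSTP1: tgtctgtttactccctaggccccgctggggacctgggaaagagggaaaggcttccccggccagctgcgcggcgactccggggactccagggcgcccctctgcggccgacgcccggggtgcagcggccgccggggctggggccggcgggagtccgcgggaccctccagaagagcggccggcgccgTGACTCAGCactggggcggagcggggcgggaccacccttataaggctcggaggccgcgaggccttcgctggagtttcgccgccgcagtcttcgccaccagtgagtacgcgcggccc
ME1: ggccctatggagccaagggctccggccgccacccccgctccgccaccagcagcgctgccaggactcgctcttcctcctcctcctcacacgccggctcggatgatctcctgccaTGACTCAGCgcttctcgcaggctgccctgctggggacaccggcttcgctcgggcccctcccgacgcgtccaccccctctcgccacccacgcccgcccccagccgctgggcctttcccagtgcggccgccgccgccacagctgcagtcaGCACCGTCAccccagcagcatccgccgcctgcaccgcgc
The GCLM window is chr1:93909381-93909680 on the minus strand, with the core at bases -34 to -26 from the start. The PIR window is chrX:15493284-15493583 on the minus strand, with the core at bases 27 to 35 after the start and holding AP-1. The GSTP1 window is chr11:67583562-67583861 on the plus strand, with the core at -66 to -58, and the ME1 window is chr6:83431002-83431301 on the minus strand, with cores at -137 to -129 and 12 to 20. The upstream cores of GSTP1 and ME1 were the same 9 bases and held AP-1. Among the measured members with a window, the core was held by 3 of the 10 that rose in KMS-11/Cfz (GCLM, GSTA4 and PIR) and by 8 of the other 15. A match to these letters describes the sequence and does not show binding.

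KMS-34/Cfz replicate 1 stood apart from its group. Its correlation with the other KMS-34/Cfz arrays over all genes was 0.801 and 0.848, while the pairs of the other groups lay between 0.891 and 0.964. The median SD of the members among the 3 arrays was 0.114 in KMS-34/Cfz, 0.0519 in KMS-11/Cfz, 0.102 in KMS-34 and 0.0659 in KMS-11. The counts of members in KMS-34/Cfz, and the members called there, are given with and without that array. Of 7 plasma cell markers, 2 were lower and 0 higher in KMS-11/Cfz, and 4 were lower and 0 higher in KMS-34/Cfz, with the surface antigen SLAMF7 down in both, to 0.51 of the parental signal in KMS-11/Cfz, and to 0.502 of it in KMS-34/Cfz. For comparison, 1.94% of all genes were lower in KMS-11/Cfz, while the share for KMS-34/Cfz was 4.69%. The monocyte marker CD14 (-0.32, adjusted p = 0.031) and the erythroid marker HBB (-0.29, adjusted p = 0.014) were also lower in KMS-34/Cfz. The other monocyte markers, LYZ (0.07, adjusted p = 0.77) and CSF1R (-0.00, adjusted p = 0.99), and the erythroid marker ALAS2 (-0.14, adjusted p = 0.49) did not pass there. No T and NK cell or stromal marker passed in either line. Presence of a marker cannot be read from centred values, and the part of these shifts in the results below was not tested.

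The comparison of KMS-11/Cfz with KMS-11 asked which of these genes differed after selection in that line. In KMS-11/Cfz, 11 of the 33 members rose and 0 fell, so that 33.3% were called. Among all genes 3.57% were called in this comparison, 1.63% higher and 1.94% lower. The members and the wider list below were chosen with earlier results of these data known. Their shares set against all genes, here and below, are therefore not independent of these data. The largest increases were those of PIR, an iron-binding nuclear protein, at 2.62-fold, NXN, a thioredoxin-like oxidoreductase, at 2.17-fold, and TALDO1, transaldolase of the pentose phosphate pathway, at 1.58-fold. The other 8 rose by between 1.23-fold (GLRX) and 1.49-fold (OSGIN1). The median change of the 33 members was 0.16, with 26 values above 0, and the median over all genes was 0.00. The resistant arrays exceeded every parental array for 19 members and fell short of every one for 2, against 13.1% and 13.7% of all genes.

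**Figure D1:**
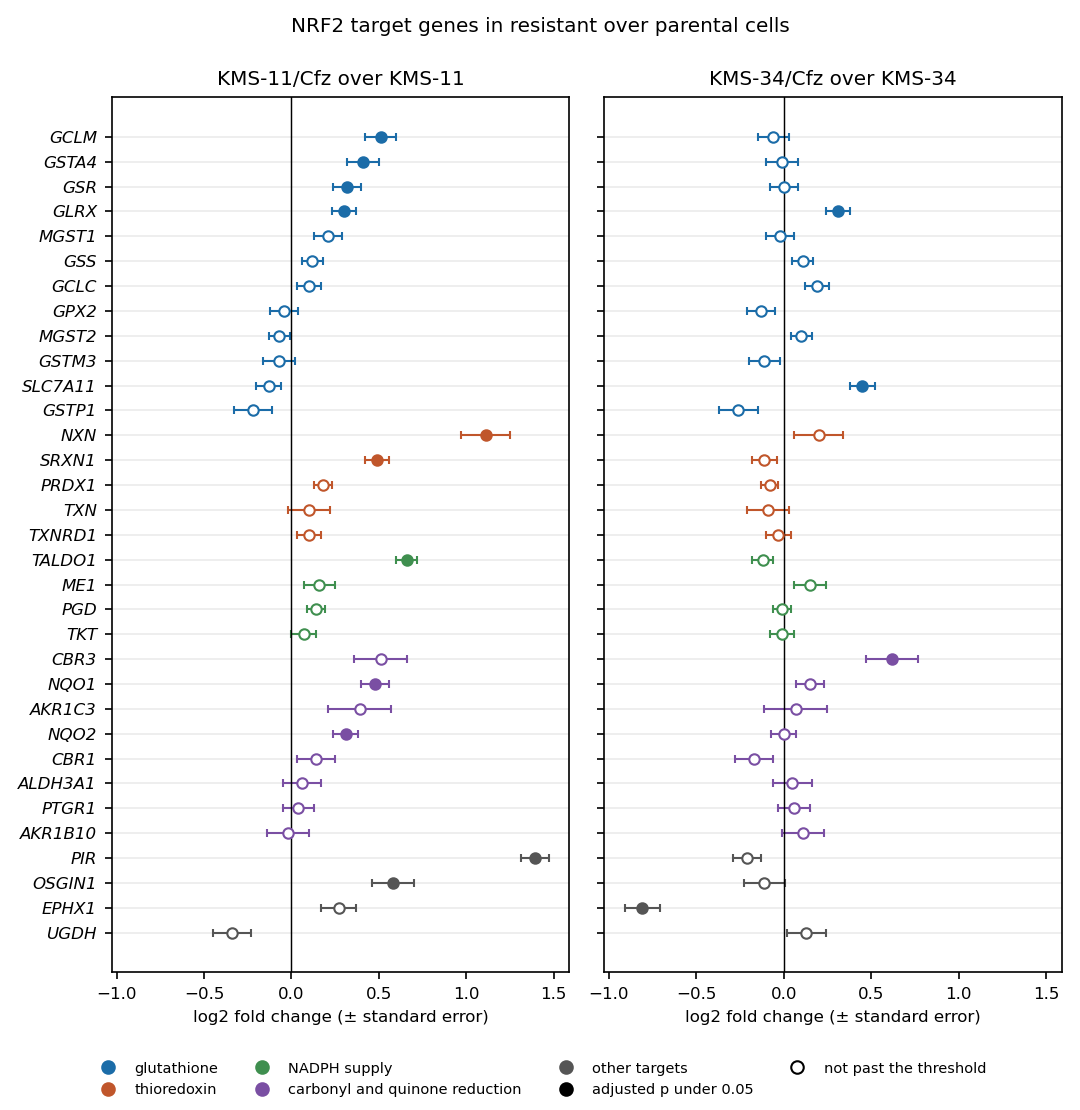
Log2 fold change (x axis, with standard error) of the 33 NRF2 target genes, sorted by role and then by size in KMS-11/Cfz, in KMS-11/Cfz over KMS-11 (left) and KMS-34/Cfz over KMS-34 (right). Filled points have an adjusted p under 0.05: 11 lie to the right of 0 on the left and none to the left of it, while on the right 3 lie to the right of 0 and 1, EPHX1, to the left.

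Of 12 glutathione genes, 4 rose in KMS-11/Cfz, 0 fell and the median change was 0.11. GCLM, the modifier subunit of the ligase that starts glutathione synthesis, had 0.49, 0.54 and 0.51 in KMS-11/Cfz, against 0.13, -0.01 and -0.12 in KMS-11. The groups did not overlap, and the resistant arrays were the closer together. GCLM rose by 0.51 ± 0.09, or 1.43-fold (adjusted p = 0.008). Its 3 probe sets gave 0.38, 0.66 and 0.50, of which the second passed the threshold when all probe sets were tested singly. The catalytic subunit GCLC, by contrast, stood at 0.17, 0.00 and 0.14 in KMS-11/Cfz, against -0.01, 0.04 and -0.03 in KMS-11, and its difference of 0.10 ± 0.07 did not pass (adjusted p = 0.65). Neither GSS, which adds the last amino acid of glutathione (0.12 ± 0.06, adjusted p = 0.47), nor SLC7A11, the cystine importer (-0.13 ± 0.07, adjusted p = 0.48), passed.

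GSR, the reductase that turns oxidised glutathione back with NADPH, had 0.35, 0.39 and 0.22 in KMS-11/Cfz, against -0.01, 0.05 and -0.04 in KMS-11. GLRX, glutaredoxin, which removes glutathione from protein thiols, had 0.30, 0.30 and 0.28 in KMS-11/Cfz, against 0.06, -0.05 and -0.01 in KMS-11. Neither gene's groups overlapped. GSR rose by 0.32 ± 0.08 (adjusted p = 0.04) and GLRX by 0.30 ± 0.07 (adjusted p = 0.026). Without its probe set ending in _s_at, GLRX stood at 0.22 and was not called (adjusted p = 0.27). GSTA4, a glutathione transferase with a preference for the lipid peroxidation product 4-hydroxynonenal, had 0.59, 0.33 and 0.29 in KMS-11/Cfz, against -0.04, 0.05 and -0.01 in KMS-11, a rise of 0.41 ± 0.09 (adjusted p = 0.02). The GSTA4 call was lost without KMS-11/Cfz replicate 1, its highest array (0.31, adjusted p = 0.1), and also without KMS-11 replicate 1, 2 or 3 (adjusted p = 0.088, 0.0505 and 0.073). Its 2 probe sets gave 0.59 and 0.22, and the first alone was called. The other transferases and GPX2, a glutathione peroxidase best known from the gut epithelium, did not pass: MGST1 stood at 0.21 ± 0.08, MGST2 at -0.07 ± 0.06, GSTM3 at -0.07 ± 0.09, GPX2 at -0.04 ± 0.08 and GSTP1 at -0.22 ± 0.11. For GSTP1 all 3 resistant arrays (-0.20, -0.22 and -0.25) nevertheless lay below the parental arrays, which lay between -0.04 and 0.04.

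In the thioredoxin group 2 of 5 genes rose in KMS-11/Cfz and 0 fell, with a median of 0.18. SRXN1, sulfiredoxin, which repairs overoxidised peroxiredoxins, had 0.48, 0.49 and 0.49 in KMS-11/Cfz, against 0.02, 0.01 and -0.03 in KMS-11. NXN, nucleoredoxin, had 1.21, 1.20 and 0.93 in KMS-11/Cfz, against 0.03, -0.14 and 0.11 in KMS-11. The resistant arrays were far above the parental ones for both genes, and the spread was wider for NXN. SRXN1 rose by 0.49 ± 0.07 (adjusted p = 0.0013) and NXN by 1.11 ± 0.14 (adjusted p = 5.9e-04). Thioredoxin itself (TXN, 0.10 ± 0.12) and its reductase TXNRD1 (0.10 ± 0.07) had overlapping groups. PRDX1, a peroxiredoxin that removes hydrogen peroxide, had tight groups that did not overlap, with 0.18, 0.19 and 0.18 in KMS-11/Cfz, against 0.01, -0.01 and -0.01 in KMS-11. Its difference of 0.18 ± 0.05 did not pass in the fit of all groups (adjusted p = 0.094). With the KMS-11 line fitted alone, PRDX1 passed (adjusted p = 0.043).

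Of the 4 genes of NADPH supply, TALDO1 rose in KMS-11/Cfz. Its arrays were at 0.68, 0.66 and 0.64 in KMS-11/Cfz, against -0.04, 0.04 and 0.00 in KMS-11. Both groups were tight, and the difference was 0.66 ± 0.06 (adjusted p = 2.7e-05). PGD, phosphogluconate dehydrogenase, gave 0.14 ± 0.05 and ME1, malic enzyme, 0.16 ± 0.09, neither past the threshold, although for both all 3 resistant arrays were above the parental ones. Transketolase (TKT), the partner of TALDO1 in the non-oxidative branch, gave 0.07 ± 0.07 with overlapping groups.

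Of 8 genes of carbonyl and quinone reduction, 2 rose in KMS-11/Cfz, and the median change was 0.22. NQO1, which reduces quinones by 2 electrons, had 0.55, 0.44 and 0.44 in KMS-11/Cfz, against 0.00, 0.06 and -0.06 in KMS-11. NQO2, its relative that prefers dihydronicotinamide riboside as donor, had 0.36, 0.28 and 0.30 in KMS-11/Cfz, against 0.08, -0.05 and -0.03 in KMS-11. Both genes had groups that did not overlap. NQO1 rose by 0.48 ± 0.08 (adjusted p = 0.0043), and its 3 probe sets gave 0.54, 0.41 and 0.48. NQO2 rose by 0.31 ± 0.07 (adjusted p = 0.03), the mean of 1 probe set at 0.60 and 1 at 0.03, so its call rested on the first. CBR3, a carbonyl reductase, had 0.36, 0.52 and 0.67 in KMS-11/Cfz, against 0.01, 0.09 and -0.10 in KMS-11. These groups did not overlap either, but 0.51 ± 0.15 did not pass (adjusted p = 0.087). The error comes from a spread shared by all 4 groups. The SD of CBR3 was 0.15 in KMS-11/Cfz and 0.10 in KMS-11, with 0.35 in KMS-34/Cfz and 0.21 in KMS-34. With the KMS-11 line fitted alone, the CBR3 rise passed (adjusted p = 0.01). AKR1C3, an aldo-keto reductase of steroids and prostaglandins, was at 0.39 ± 0.18 (adjusted p = 0.35). CBR1, PTGR1, ALDH3A1 and AKR1B10 lay between -0.02 and 0.14, with overlapping groups.

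Among the other targets PIR had 1.46, 1.35 and 1.36 in KMS-11/Cfz, against -0.03, 0.14 and -0.11 in KMS-11. OSGIN1, an oxidative stress induced growth inhibitor, had 0.58, 0.63 and 0.52 in KMS-11/Cfz, against -0.07, 0.12 and -0.05 in KMS-11. Both were well separated. PIR rose by 1.39 ± 0.08 (adjusted p = 5.2e-07) and OSGIN1 by 0.58 ± 0.12 (adjusted p = 0.015). EPHX1, microsomal epoxide hydrolase, had 0.26, 0.27 and 0.27 in KMS-11/Cfz, against -0.05, 0.13 and -0.08 in KMS-11, and its 0.27 ± 0.10 did not pass (adjusted p = 0.2). UGDH, which makes the UDP-glucuronate used for glucuronidation, was the lowest member at -0.34 ± 0.11, with the resistant arrays below the parental ones and an adjusted p of 0.13.

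Of the 11 rises in KMS-11/Cfz, 6 (GCLM, SRXN1, NXN, TALDO1, NQO1 and PIR) were called in all 12 fits that left out 1 array. The other 5 lost the call in some of them: GSR was called in 4 of the 12, GLRX and NQO2 in 6, and GSTA4 and OSGIN1 in 8. GSR, GLRX and NQO2 lost it whichever array of KMS-11 or KMS-11/Cfz was left out. The number of rises ranged from 6 to 12. The count of rises was 6 without KMS-11 replicate 1 or 3 or KMS-11/Cfz replicate 1, and 7 without KMS-11 replicate 2 or KMS-11/Cfz replicate 2.

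The comparison of KMS-34/Cfz with KMS-34 put the same question to the other line. In KMS-34/Cfz, 3 of the 33 members rose, SLC7A11, GLRX and CBR3, and 1 fell, EPHX1. These were 12.1% of members, while 10.1% of all genes were called in this comparison, 5.4% higher and 4.69% lower, so that the share called was near that of the whole table. The median change of the members was -0.01, as it was over all genes, and 14 values were above 0. The resistant arrays exceeded every parental array for 4 members and fell short of every one for 3, against 10.2% and 10.5% of all genes. Without KMS-34/Cfz replicate 1, 4 rose and 2 fell, the additions being NQO1 (0.24, adjusted p = 0.0487) and GSTP1 (-0.41, adjusted p = 0.0078). The share of all genes called in that fit is not given here.

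SLC7A11 exchanges glutamate for the cystine from which glutathione is built. It had 0.34, 0.45 and 0.55 in KMS-34/Cfz, against 0.03, 0.00 and -0.03 in KMS-34. The groups were well apart, and SLC7A11 rose by 0.45 ± 0.07, or 1.36-fold (adjusted p = 0.0013), and by 0.50 without KMS-34/Cfz replicate 1. The 3 GLRX arrays were at 0.23, 0.34 and 0.36 in KMS-34/Cfz, against 0.01, 0.10 and -0.11 in KMS-34, with no overlap and a rise of 0.31 ± 0.07 (adjusted p = 0.0085, 0.35 without that array). When only the KMS-34 line was fitted, the GLRX call was lost (adjusted p = 0.091). CBR3 had 0.30, 0.58 and 0.99 in KMS-34/Cfz, against -0.20, -0.02 and 0.22 in KMS-34. The highest parental array of CBR3 came close to the lowest resistant one, and the rise was 0.62 ± 0.15 (adjusted p = 0.017), or 0.78 without KMS-34/Cfz replicate 1. The CBR3 call was lost without KMS-34/Cfz replicate 3 (adjusted p = 0.0534), KMS-34 replicate 1 (adjusted p = 0.072) or KMS-34 replicate 2 (adjusted p = 0.05), and when only the KMS-34 line was fitted (adjusted p = 0.067). Under cyclic loess scaling CBR3 stood at 0.17 (adjusted p = 0.79).

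EPHX1 had -0.71, -0.89 and -0.82 in KMS-34/Cfz, against -0.24, 0.18 and 0.05 in KMS-34. All resistant arrays were far below the parental ones, and EPHX1 fell by 0.81 on the log2 scale (standard error 0.10, adjusted p = 1.6e-04), which left 0.572 of the parental signal. Without KMS-34/Cfz replicate 1 the change was -0.86.

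Of the 12 glutathione genes 2 rose in KMS-34/Cfz and 0 fell, and the others spanned the range from GSTP1 at -0.26 ± 0.11 to GCLC at 0.19 ± 0.07. GSTP1 was split among the resistant arrays, with 0.04, -0.44 and -0.38 in KMS-34/Cfz, against 0.19, -0.15 and -0.04 in KMS-34. Replicate 1 was the high one. None of the 5 thioredoxin genes passed (-0.11 to 0.20), and NXN had scattered arrays at 0.47, 0.28 and -0.15 in KMS-34/Cfz, against -0.22, 0.07 and 0.15 in KMS-34. None of the 4 genes of NADPH supply passed, and for TKT the mean of -0.01 ± 0.07 hid probe sets of opposite direction: 1 at -0.26 and 1 at 0.39 both passed when probe sets were tested singly, with the remaining one at -0.17. For 1 of the 3 GCLM probe sets the change was -0.34 (adjusted p = 0.0477 over all probe sets), while the others gave 0.07 and 0.08.

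**Figure D2:**
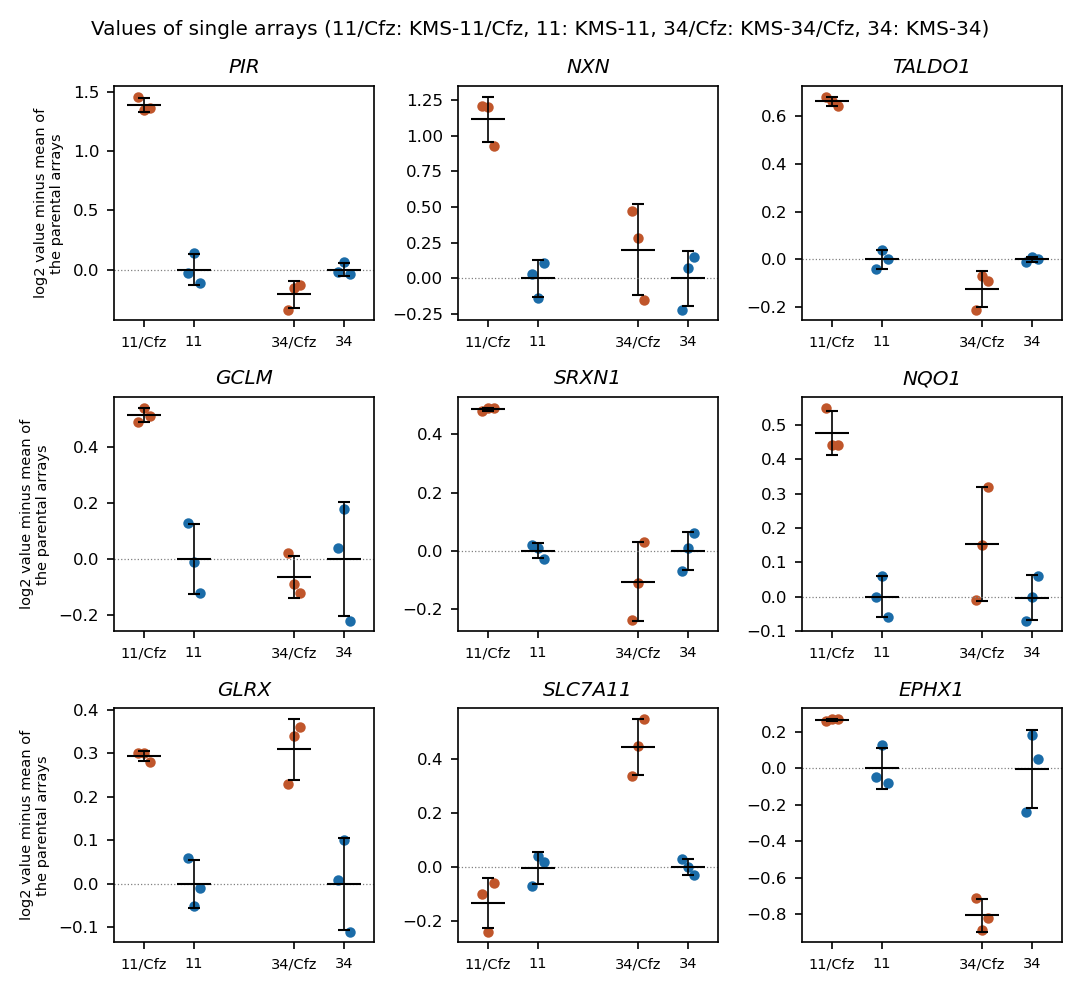
Log2 value of each array minus the mean of the parental arrays of its line (y axis, 1 point per array, n = 3 per group) for 9 members, resistant arrays in orange and parental arrays in blue, with group mean and SD in black; the y axes differ between genes. PIR, NXN, TALDO1, GCLM, SRXN1 and NQO1 were called in KMS-11/Cfz, SLC7A11 and EPHX1 in KMS-34/Cfz and GLRX in both lines.

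Whether a change differed between the lines was tested as the KMS-34 change minus the KMS-11 change. It was different for 8 of the 33 members (24.2%), 1 positive and 7 negative, while 6.44% of all genes were called, 3.7% positive and 2.74% negative. The difference was negative, with the KMS-34 change the lower, for GCLM, SRXN1, NXN, TALDO1, EPHX1, PIR and OSGIN1, and positive for SLC7A11. PIR differed most, at -1.60 ± 0.11 (adjusted p = 2.5e-06). In KMS-34/Cfz its arrays were at -0.34, -0.16 and -0.13, against -0.02, 0.06 and -0.04 in KMS-34, so that all 3 were below the parental arrays, where in KMS-11/Cfz all 3 were above theirs, although the change in KMS-34 cells of -0.21 ± 0.08 did not pass by itself (adjusted p = 0.12). TALDO1 showed the same arrangement, with -0.21, -0.07 and -0.09 in KMS-34/Cfz, against -0.01, 0.01 and 0.00 in KMS-34, and differed by -0.78 ± 0.08 (adjusted p = 9.6e-05).

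EPHX1 differed by -1.07 ± 0.14 (adjusted p = 4.8e-04), with opposite signs in the lines. NXN differed by -0.91 ± 0.20 (adjusted p = 0.017). SRXN1 had -0.24, -0.11 and 0.03 in KMS-34/Cfz, against -0.07, 0.01 and 0.06 in KMS-34, an overlap that the KMS-11 line did not show, and differed by -0.59 ± 0.10 (adjusted p = 0.0026). GCLM had 0.02, -0.09 and -0.12 in KMS-34/Cfz, against 0.04, 0.18 and -0.22 in KMS-34. Its parental arrays were the wider spread, and its changes differed by -0.57 ± 0.13 (adjusted p = 0.021). OSGIN1 had -0.36, 0.10 and -0.07 in KMS-34/Cfz, against -0.21, 0.00 and 0.21 in KMS-34, and differed by -0.69 ± 0.17 (adjusted p = 0.026). SLC7A11 was the exception in direction, at 0.58 ± 0.10 (adjusted p = 0.0038), and had -0.10, -0.24 and -0.06 in KMS-11/Cfz, against -0.07, 0.04 and 0.02 in KMS-11. The GCLM and OSGIN1 differences lost their calls when single arrays were left out (highest adjusted p 0.055 and 0.07), and the other 6 kept theirs in all 12 such fits. Without KMS-34/Cfz replicate 1, 9 members differed, 1 positive and 8 negative, with GSTA4 added (-0.47, adjusted p = 0.027).

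Of the 11 members that rose in KMS-11/Cfz, 1 also rose in KMS-34/Cfz (GLRX), 6 had a change that differed between the lines by this test, and 5 did not (GSR, GLRX, GSTA4, NQO1 and NQO2). For those 5 the intervals of the difference were -0.57 to -0.08 for NQO1, -0.56 to -0.08 for GSR, -0.68 to -0.15 for GSTA4, -0.54 to -0.10 for NQO2 and -0.19 to 0.22 for GLRX (95%, unadjusted). All but the GLRX interval lay below 0, although none of the 5 differences passed after adjustment over all genes. NQO1 had -0.01, 0.15 and 0.32 in KMS-34/Cfz, against -0.07, 0.00 and 0.06 in KMS-34, and averaged over both lines it rose by 0.31 ± 0.06 (adjusted p = 0.0039). In that mean of both changes 7 members rose, GLRX, SRXN1, NXN, TALDO1, NQO1, CBR3 and PIR, and 1 fell, EPHX1, or 24.2% of members, while 7.85% of all genes were called, 3.99% higher and 3.86% lower. GLRX at 0.30 ± 0.05 (adjusted p = 0.0013) and CBR3 at 0.57 ± 0.11 (adjusted p = 0.0047) were among them, and the 95% intervals of the difference between the lines ran from -0.19 to 0.22 for GLRX and from -0.35 to 0.57 for CBR3, whose change had not passed in KMS-11/Cfz. Under cyclic loess scaling the CBR3 mean was 0.41 (adjusted p = 0.21). The SRXN1, NXN, TALDO1, PIR and EPHX1 means combine changes that differed. Of the 12 fits that left out 1 array, 2 still called SRXN1 (highest adjusted p 0.077) and 3 still called EPHX1 (highest adjusted p 0.079).

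The parental lines themselves differed in more of these genes than selection changed in either. In KMS-34 against KMS-11, 9 members were higher and 13 lower, 66.7% in all, where 42.1% of all genes were called (21.6% higher, 20.5% lower). The KMS-34 arrays were all above KMS-11 for 9 members and all below for 13, against 26.1% and 24% of all genes. This comparison shares its arrays with those above. The largest differences were those of MGST1, a membrane-bound glutathione transferase, ME1, GSTP1, AKR1C3, CBR3 and UGDH.

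MGST1 had -4.29, -4.62 and -4.38 in KMS-34, against 0.06, -0.02 and -0.05 in KMS-11, a difference of -4.43 ± 0.08 (adjusted p = 7.0e-14). ME1 had -3.76, -4.02 and -4.04 in KMS-34, against 0.07, -0.06 and -0.01 in KMS-11, a difference of -3.94 ± 0.09 (adjusted p = 4.7e-13). GSTP1 had -3.19, -3.54 and -3.43 in KMS-34, against 0.00, -0.04 and 0.04 in KMS-11, a difference of -3.39 ± 0.11 (adjusted p = 1.8e-11). No parental array of one line came near those of the other for these 3 genes. The size depended on the probe set. For ME1, 2 probe sets gave -5.85 and -5.78 and the third -0.19, and for MGST1 the 5 probe sets ran from -7.11 to -0.19, so that the gene means understate the first and overstate the last.

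AKR1C3 went the other way, with 2.97, 2.62 and 2.66 in KMS-34, against -0.19, 0.09 and 0.11 in KMS-11, a difference of 2.75 ± 0.18 (adjusted p = 1.4e-08). CBR3 had -2.75, -2.57 and -2.33 in KMS-34, against 0.01, 0.09 and -0.10 in KMS-11, a difference of -2.55 ± 0.15 (adjusted p = 5.7e-09). UGDH had -1.87, -1.86 and -2.33 in KMS-34, against 0.11, -0.03 and -0.09 in KMS-11, a difference of -2.02 ± 0.11 (adjusted p = 2.3e-09). None of these groups overlapped. Selection moved the same genes little: beside the parental gap of -2.55, CBR3 changed by 0.51 in KMS-11/Cfz, with 0.62 in KMS-34/Cfz, and MGST1 by 0.21 in KMS-11/Cfz, with -0.02 in KMS-34/Cfz.

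**Figure D3:**
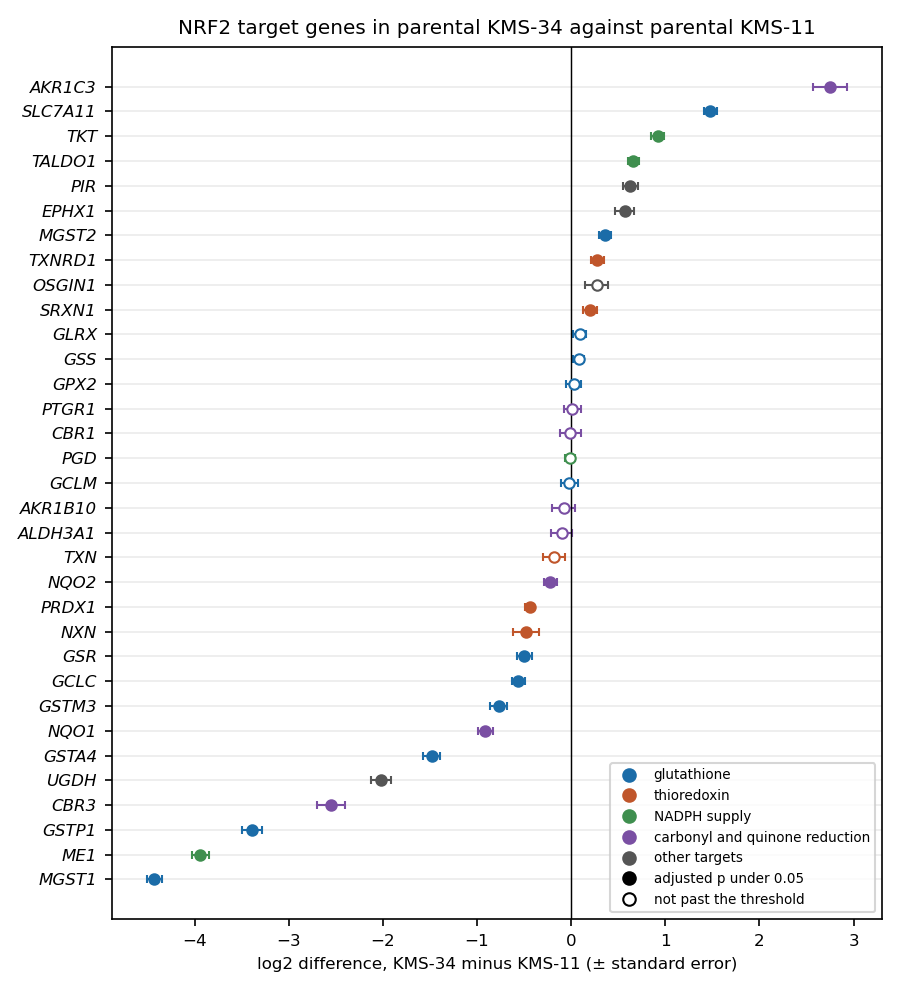
Log2 difference of the 33 NRF2 target genes between parental KMS-34 and parental KMS-11 (x axis, KMS-34 minus KMS-11, with standard error), sorted by size and coloured by role; filled points have an adjusted p under 0.05. AKR1C3 is highest at 2.75, and MGST1, ME1 and GSTP1 are lowest, at -4.43, -3.94 and -3.39.

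Among the parental lines, 6 of the 12 glutathione genes were lower in KMS-34 (MGST1, GSTP1, GSTA4, GSTM3, GCLC and GSR) and 2 higher (SLC7A11 at 1.48 ± 0.07 and MGST2 at 0.36 ± 0.06). Of the 4 genes of NADPH supply 2 were higher, TKT at 0.92 ± 0.07 and TALDO1 at 0.66 ± 0.06, and ME1 was lower. In the thioredoxin group TXNRD1 (0.28 ± 0.07) and SRXN1 (0.20 ± 0.07) were higher and PRDX1 (-0.44 ± 0.05) and NXN (-0.48 ± 0.14) lower. NQO1 was lower in KMS-34 (-0.91 ± 0.08, adjusted p = 3.8e-07), with -0.98, -0.91 and -0.85 in KMS-34, against 0.00, 0.06 and -0.06 in KMS-11, and NQO2 stood at -0.22 ± 0.07. PIR (0.63 ± 0.08) and EPHX1 (0.57 ± 0.10) were higher in KMS-34. Of the 12 fits that left out 1 array, 7 still called the parental difference of SRXN1, 9 that of NQO2 and 10 that of NXN. TXNRD1 was not called when its probe set of largest variance stood for it (0.16, adjusted p = 0.39). NQO2 stood at -0.00 (adjusted p = 0.99) without its probe set ending in _s_at.

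Placed on 1 scale, with the mean of KMS-11 as 0, the 4 groups came in different orders for different members. TALDO1 averaged 0.66 in KMS-11/Cfz, 0.53 in KMS-34/Cfz and 0.66 in KMS-34, so that the KMS-11/Cfz mean equalled that of unselected KMS-34. EPHX1 averaged 0.27 in KMS-11/Cfz, -0.24 in KMS-34/Cfz and 0.57 in KMS-34. SLC7A11 averaged -0.13 in KMS-11/Cfz, 1.93 in KMS-34/Cfz and 1.48 in KMS-34. EPHX1 was thus higher in KMS-34 of the parental lines and lower in KMS-34/Cfz of the resistant ones, while SLC7A11 was higher on the KMS-34 side in both.

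**Figure D4:**
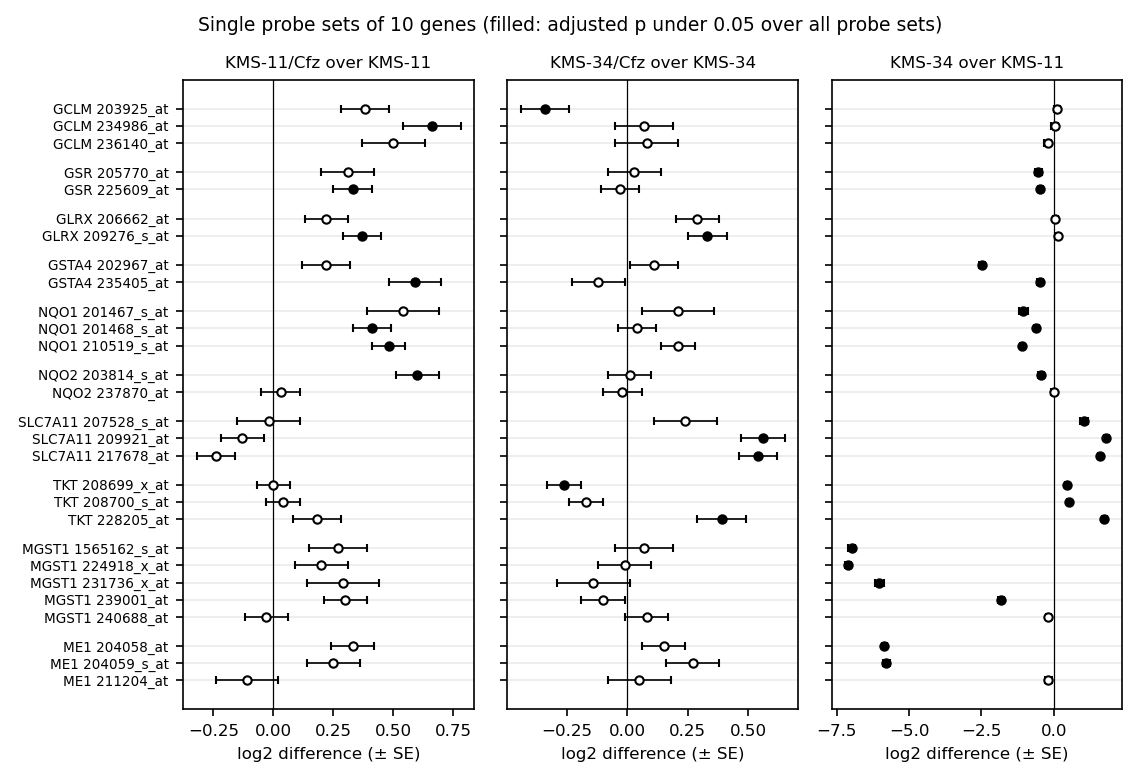
Log2 difference (x axis, with standard error) of each probe set of 10 members in KMS-11/Cfz over KMS-11, KMS-34/Cfz over KMS-34 and KMS-34 over KMS-11; filled points have an adjusted p under 0.05 over all probe sets. The GCLM and NQO1 probe sets lie together in KMS-11/Cfz, those of NQO2 (0.60 and 0.03) and GSTA4 (0.59 and 0.22) apart, and those of MGST1 and ME1 run from near 0 to beyond -5 in the parental comparison.

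A wider list of 103 further genes of glutathione, thioredoxin, NADPH, carbonyl, iron and superoxide metabolism and of NRF2 and its regulators, of which 97 were analysed, was counted in the same way. In KMS-11/Cfz 6 rose and 2 fell, 8.25% of it, where 3.57% of all genes were called (1.63% higher, 1.94% lower), and the median change was 0.02. The largest rise was that of BLVRB, the NADPH-dependent flavin and biliverdin reductase, with 1.85, 1.90 and 1.85 in KMS-11/Cfz, against -0.09, 0.02 and 0.07 in KMS-11, and it stood beyond that of every member at 1.87 ± 0.08 (adjusted p = 6.9e-08). SQSTM1, the autophagy receptor that binds KEAP1, rose by 0.40 ± 0.07, TXNL1, a thioredoxin-like protein of the proteasome, by 0.39 ± 0.09 and SELENOW, a small selenoprotein, by 0.38 ± 0.06. The neutral amino acid transporter SLC1A4 (-0.61 ± 0.06) and the cytosolic NADP-dependent isocitrate dehydrogenase IDH1 (-0.33 ± 0.05) fell. NFE2L2, which encodes NRF2, was at 0.11 ± 0.06 in KMS-11/Cfz, and the KMS-34/Cfz value was 0.09 ± 0.06, neither past the threshold. KEAP1 was at 0.19 ± 0.06 in KMS-11/Cfz, with -0.12 ± 0.06 in KMS-34/Cfz, and did not pass either.

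In KMS-34/Cfz 15 genes of the wider list rose and 10 fell, 25.8% of it, with a median of 0.03, where 10.1% of all genes were called (5.4% higher, 4.69% lower). Without KMS-34/Cfz replicate 1, 19 rose and 7 fell. IDH2, the mitochondrial counterpart of IDH1, had 1.00, 1.18 and 1.16 in KMS-34/Cfz, against -0.06, 0.02 and 0.04 in KMS-34, and rose by 1.11 ± 0.06 (adjusted p = 1.9e-07). The sestrins SESN2 (0.58 ± 0.09) and SESN3 (0.44 ± 0.06), stress-induced regulators of growth signalling, and GSTZ1 (0.50 ± 0.10), a transferase of tyrosine breakdown, also rose. Those that fell most were ALDH9A1, an aldehyde dehydrogenase (-0.45 ± 0.07), TXNIP, the inhibitor of thioredoxin (-0.44 ± 0.10), DCXR, a carbonyl reductase of xylulose (-0.39 ± 0.07), and CYB5R1, a cytochrome b5 reductase (-0.32 ± 0.06). CYB5R1 had -0.19, -0.40 and -0.38 in KMS-34/Cfz, against 0.01, -0.03 and 0.03 in KMS-34, while in KMS-11/Cfz it had 0.38, 0.37 and 0.32, against 0.00, -0.01 and 0.01 in KMS-11.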

How the data were processed

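RNA was hybridised to Affymetrix human genome arrays, and the authors deposited log2 values normalized by RMA (version not given in the sources used here). The table holds 54613 probe sets, of which 41091 name 1 gene, with values from -7.75 to 8.64. In 99.99% of probe sets 3 to 9 of the 12 values lay below 0, so the values are centred. What was subtracted is not stated, and it is the same for all 12 arrays, so differences keep the log2 scale. Array medians lay between -0.017 and 0.013. Probe sets naming a gene alone were averaged (19775 genes) and fitted in limma 3.58.1 (R 4.3.3) with 1 mean for each of 4 groups, the replicates sharing 1 estimate of spread, and tested by empirical Bayes. The members and lists were chosen with earlier results of these data known. All measured members are named, with every array for those past the threshold in a change or in the 6 largest parental differences, and up to 4 rises and 4 falls per line of the wider list. Alternatives, 20 in all, varied the probe sets, arrays, scaling, weights and blocking. No filter on dim signal was possible with centred values, and the number of arrays limits precision. The fit was tested on simulated data. Python 3.11.15, numpy 2.4.6, pandas 2.3.3 and matplotlib 3.10.9 made the tables and figures. Promoter windows and gene names come from RefSeq.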

Additional observations from a re-analysis of the deposited data

Results flagged for a closer look

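The changes of 8 members were singled out because the test of the difference between the lines itself (KMS-34 change minus KMS-11 change, limma) passed. The value was -0.57 for GCLM, -0.59 for SRXN1, -0.91 for NXN, -0.78 for TALDO1, -1.07 for EPHX1, -1.60 for PIR and -0.69 for OSGIN1. It was 0.58 for SLC7A11.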

How the results depend on the processing

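Of the 20 alternatives, 19 gave a value per gene, 3044 values of single members in all. Of these values, 2727 kept their direction and their side of the threshold, and 140 changed sign without passing it in either analysis (up to 0.85 in size). The rest were 93 that lost a call, 76 that gained one and 8 that reversed. SRXN1, NXN, TALDO1 and PIR in KMS-11/Cfz, as well as SLC7A11 and EPHX1 in KMS-34/Cfz, were called under every alternative that gave a value per gene. All of these but SLC7A11 were read by 1 probe set, so choosing among probe sets could not change their log2 differences. For NXN, TALDO1 and PIR it ends in _s_at, and they had no value without such probe sets. The reversals were as follows. Under cyclic loess scaling, which bends the difference of 2 arrays along their average (here no signal level), the parental differences became 0.25 for CBR3, 0.02 for GSTA4, 0.24 for GSTP1, 0.33 for ME1 and 0.43 for MGST1, and 7 members were lower in KMS-34 with 9 higher. TKT in KMS-34/Cfz became 0.39 when the probe set with most variance stood for the gene or without probe sets ending in _x_at or _s_at, and GSTM3 in the parental comparison became 0.03 without those, since single probe sets remained.

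With the probe set of largest variance standing for each gene, 7 members rose in KMS-11/Cfz. Without probe sets ending in _x_at or _s_at, which left 28 members to read and removed PIR, NXN, TALDO1 and NQO1, 4 rose in KMS-11/Cfz (461 genes in all called), 5 differed between the lines, and 1026 genes passed in the mean of both lines. With all probe sets tested, 3 members had a probe set lower in KMS-34/Cfz. With each line fitted alone, every rise of the main fit in KMS-11/Cfz was kept. AKR1C3, CBR3, EPHX1, MGST1 and PRDX1 also rose there, and 2 members fell (1374 genes called). In KMS-34/Cfz 1 rose (754 genes called). Array weights did not converge and gave KMS-34/Cfz replicate 2 a weight of 19.38. With them, 16 members rose and 1 fell in KMS-11/Cfz (2034 genes called), and 5 rose and 3 fell in KMS-34/Cfz (5112 genes). In the same fit 16 differed between the lines (4062 genes), and 16 rose and 2 fell over both (3928 genes). The cause of these differences was not tested.

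Leaving out 1 array at a time gave 6 to 12 rises and 0 to 1 falls in KMS-11/Cfz (328 to 1067 genes called) and 1 to 2 falls in KMS-34/Cfz. Over both lines it gave 6 to 12 rises and 0 to 2 falls (1008 to 2115 genes), and 783 to 1935 genes differed between the lines. The highest counts of rises in KMS-11/Cfz, 12, and over both lines, 12, came without KMS-34/Cfz replicate 1, which also gave the highest counts of genes. The 12 rises in KMS-11/Cfz were reached as well without KMS-34/Cfz replicate 3, where CBR3 was gained (0.51, adjusted p = 0.026).

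No pairing by the replicate numbers of the labels was used in the main fit. The correlations of same-numbered deviations were -0.009, 0.129 and 0.039 in the KMS-11 line. In the KMS-34 line they were 0.561, 0.374 and 0.046, so whether the numbers pair the samples was not settled there. With the number as a block, 12 members rose in KMS-11/Cfz and 0 fell, 3 rose and 1 fell in KMS-34/Cfz, 9 differed between the lines, 9 rose and 2 fell over both, and 10 were higher and 13 lower in KMS-34 than in KMS-11. Where an alternative's count of members, here or above, stands without a count of all genes, it cannot be set against the whole table.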
